A study of Mus musculus with 2 samples.

Results

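The mitochondrial ribosomal protein genes were described from messenger RNA-seq of mouse embryonic stem cells (mESCs), in the iXist-ChrX-Dom line before induction. Members were taken by name, as every gene whose symbol starts with Mrpl or Mrps followed by a digit, without pseudogene names. This gave 77 of the 22556 genes counted, 48 named Mrpl and 29 named Mrps. The line is female (XX) and a Dom/129S x Cast hybrid, so every autosomal member was read from an interspecific genome. The cells were kept on inactivated mouse fibroblast feeders and parted from them by pre-plating before harvest. Both libraries carried the Dom/129S Xist allele under a TetOn promoter in place of its own, and neither was given doxycycline (0 h). The study used these libraries to rank genes by their level before Xist is switched on. The series thus holds 1 group of 2 replicates of 1 cell line and no contrast between conditions. Nothing in the labels says whether the replicates were separate cultures, so the spread given here may be technical.

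Mitochondrial ribosomes translate the few proteins encoded by mitochondrial DNA, all of them subunits of the respiratory chain and ATP synthase. Their RNAs come from the mitochondrial genome, whereas every one of their proteins is encoded in the nucleus, made by cytosolic ribosomes and imported. Part of the proteins descend from bacterial ribosomal proteins and part were added in the mitochondrial lineage. The prefixes name the large (Mrpl) and small (Mrps) subunits, but the names and the structure do not match in every case. Mrps30 and Mrps18a lie in the large subunit, and Mrps36 is now known as a component of the oxoglutarate dehydrogenase complex. By position, 50 members belonged to the large subunit and 26 to the small subunit.

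Total counts were 23716499 fragments in replicate 1 and 20275749 in replicate 2. Members were covered by 13 to 5145 counts (median 630.0) in replicate 1 and by 1 to 4499 (median 331) in replicate 2. All but 3 members had at least 10 counts in each library. Of 10 ES cell markers, 9 reached 10 TPM (transcripts in 1000000) in the mean. Tdgf1 was the highest, with 2188 and 1944 TPM in replicates 1 and 2. Pou5f1, the lowest of the 9, had 100.4 and 15.8 TPM, and Dppa5a 567 and 72.2 TPM, so the libraries differed strongly in these markers. Sox2 was listed at 0 in both libraries, and its whole span lies inside that of Sox2ot on the same strand. By exonic length, none of 10 fibroblast markers, which would mark the feeders, reached 10 TPM. The highest was Twist1 with 8.45 TPM, and Lum was at 0. By span length Twist1 had 36.8 TPM.

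The regions around the starts of a few members are shown first. Sequences are from RefSeq on GRCm38.p6, the assembly of mm10, and span 250 bases before to 50 after the annotated start. A window was used where its start lay within 100 bases of the gene's 5′ end in the count table, which held for 63 of 77 members and for 15627 genes in all. The capitals mark exact matches, on either strand, to CGCATGCGC (the site of NRF1, a factor known for genes of mitochondrial function), CCGGAAG (the core site of ETS family factors) and AAGATGGC (the site of YY1). Mrpl18, Mrps9 and Mrpl32 are shown as the 3 members with the highest levels by exonic length, and Mrps9 also stands for the 29 windows without any of these motifs. Mrps12 is shown as a member with a low level, Mrps11 because it shares its upstream region with Mrpl46, and the S18 proteins because they are paralogues whose windows differ.

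Mrpl18: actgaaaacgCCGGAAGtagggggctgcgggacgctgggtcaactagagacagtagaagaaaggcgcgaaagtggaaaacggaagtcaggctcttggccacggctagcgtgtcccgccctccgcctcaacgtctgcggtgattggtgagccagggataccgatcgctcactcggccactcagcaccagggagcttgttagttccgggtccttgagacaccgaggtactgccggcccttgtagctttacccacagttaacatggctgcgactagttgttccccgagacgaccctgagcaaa
Mrps9: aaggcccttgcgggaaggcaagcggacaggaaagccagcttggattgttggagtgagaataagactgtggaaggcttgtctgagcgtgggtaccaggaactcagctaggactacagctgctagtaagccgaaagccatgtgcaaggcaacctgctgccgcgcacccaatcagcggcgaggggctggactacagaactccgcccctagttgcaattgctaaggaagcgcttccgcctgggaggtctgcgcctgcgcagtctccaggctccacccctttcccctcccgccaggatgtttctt
Mrpl32: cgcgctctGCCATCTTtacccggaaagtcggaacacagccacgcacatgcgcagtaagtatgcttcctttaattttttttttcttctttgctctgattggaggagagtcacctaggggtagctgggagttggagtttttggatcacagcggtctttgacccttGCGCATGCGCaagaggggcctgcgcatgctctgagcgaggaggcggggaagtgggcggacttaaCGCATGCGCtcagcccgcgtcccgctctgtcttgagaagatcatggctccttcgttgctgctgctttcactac
Mrps12: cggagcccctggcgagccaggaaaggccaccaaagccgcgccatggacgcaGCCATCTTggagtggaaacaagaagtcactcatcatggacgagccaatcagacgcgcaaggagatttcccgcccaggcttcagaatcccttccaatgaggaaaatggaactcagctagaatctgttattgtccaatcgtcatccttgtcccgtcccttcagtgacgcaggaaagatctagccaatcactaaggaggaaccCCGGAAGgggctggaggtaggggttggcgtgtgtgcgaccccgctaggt
Mrps11: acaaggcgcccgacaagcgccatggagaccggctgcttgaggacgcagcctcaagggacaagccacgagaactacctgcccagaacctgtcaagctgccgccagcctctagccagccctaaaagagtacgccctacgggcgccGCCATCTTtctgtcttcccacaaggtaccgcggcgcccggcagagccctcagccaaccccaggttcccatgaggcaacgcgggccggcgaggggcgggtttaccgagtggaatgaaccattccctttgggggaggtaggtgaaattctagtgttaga
Mrps18a: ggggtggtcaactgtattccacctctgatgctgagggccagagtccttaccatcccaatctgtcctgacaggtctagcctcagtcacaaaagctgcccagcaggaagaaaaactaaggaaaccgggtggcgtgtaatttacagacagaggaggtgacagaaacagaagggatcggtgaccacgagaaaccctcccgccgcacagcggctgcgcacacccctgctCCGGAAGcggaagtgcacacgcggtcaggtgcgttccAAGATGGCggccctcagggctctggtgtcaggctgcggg
Mrps18b: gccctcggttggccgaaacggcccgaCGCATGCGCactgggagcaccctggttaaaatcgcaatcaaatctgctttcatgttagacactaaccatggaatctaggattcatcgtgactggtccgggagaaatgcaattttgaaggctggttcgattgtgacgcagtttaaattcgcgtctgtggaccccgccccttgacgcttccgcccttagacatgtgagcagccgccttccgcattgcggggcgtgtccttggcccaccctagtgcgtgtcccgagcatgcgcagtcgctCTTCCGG
Mrps18c: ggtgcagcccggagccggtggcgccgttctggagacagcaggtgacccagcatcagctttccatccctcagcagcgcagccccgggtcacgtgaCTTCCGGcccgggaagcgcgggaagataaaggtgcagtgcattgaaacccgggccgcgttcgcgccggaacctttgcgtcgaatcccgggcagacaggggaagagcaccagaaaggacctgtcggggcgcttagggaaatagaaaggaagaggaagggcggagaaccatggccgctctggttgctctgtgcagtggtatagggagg

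Each window runs 5′ to 3′ along its gene. Mrpl18 is read from chr17:12916042-12916341 (minus strand), Mrps9 from chr1:42850983-42851282 (plus strand) and Mrpl32 from chr13:14612988-14613287 (minus strand). Mrps12 is read from chr7:28741772-28742071 (minus strand) and Mrps11 from chr7:78782881-78783180 (plus strand). The S18 windows are chr17:46110754-46111053 (plus strand) for Mrps18a, chr17:35916391-35916690 (minus strand) for Mrps18b and chr5:100798509-100798808 (plus strand) for Mrps18c.

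The ETS letters occurred in 22 of 63 member windows (34.9%), against 12.3% of all windows and 19.1% of the 8643 windows of genes with at least 1 TPM. Those of YY1 were found in 12 windows (19.0%), against 3.37% of all windows and 4.95% of those of expressed genes. In Mrpl35, Mrpl37, Mrpl42, Mrpl49, Mrps7, Mrps18a, Mrps24 and Mrps27 the YY1 letters lay after the start, on the gene's strand. Their positions ran from 11 bases (Mrps18a) to 36 bases (Mrps24) after it. In Mrpl32, Mrpl36, Mrps11 and Mrps12 they lay before the start, on the other strand. For NRF1 the count was 7 windows (11.1%), against 2.53% and 4.18%. At least 1 of these 3 motifs was present in 34 windows (54.0%), against 16.9% of all windows and 26.2% of those of expressed genes, and no window held all of them. General promoter motifs were closer to the background. CCAAT stood in 39.7% of member windows and 38.9% of all, GGGCGG (the core of the SP1 site) in 52.4% and 47.8%, and TATAAA in 6.35% and 13.1%. Matches to different motifs overlapped in 2 members, in both cases those of ETS and SP1. Among windows of expressed genes, GGGCGG (66.5%) was more frequent than among members and TATAAA (6.83%) was about as frequent. These matches are of letters and were not tested for binding.

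Within the members, levels with and without a motif differed by motif and in either direction. The median level was 55.7 TPM in members with the ETS letters and 49.8 TPM in those without. It was 47.8 and 62.3 TPM for NRF1, 28.9 and 63.6 TPM for YY1, and 31.5 and 65.2 TPM for GGGCGG. For CCAAT it was 67.1 TPM with and 49.0 TPM without the letters, and for TATAAA, in 4 members, 35.5 and 60.9 TPM. By span length the order turned for ETS (49.2 with and 58.8 TPM without), and the medians for CCAAT came to 56.8 and 54.4 TPM. No test was made of these medians, since genes are not replicates. Mrpl32 (344 TPM) and Mrps12 (3.65 TPM) each held the YY1 letters, and Mrpl18 (626 TPM) and Mrps12 each held those of ETS. Mrps9, second by exonic length and ranked 36 by span length, held none of these 3 motifs.

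All 77 members were expressed at 1 TPM or more, a level reached by 55.5% of the 22122 genes with an exonic length. TPM was computed with the exonic length of each gene, and values are means of the 2 replicates with their SD. The median member stood at 48.3 TPM (64.6 in replicate 1 and 34.7 in replicate 2), and the quartiles at 21.2 and 124 TPM. By contrast, the median of the 12277 genes with at least 1 TPM was 18.4 TPM, and 59 members (76.6%) lay above it. Of the members, 65 reached 10 TPM and 23 reached 100 TPM. Together they held 83515 fragments of replicate 1, or 0.352% (95% Wilson interval 0.350 to 0.355), and 52674 of replicate 2, or 0.260% (0.258 to 0.262). The mean share was 0.306% ± 0.0653 (SD, n = 2). The intervals of the libraries do not meet, so the shares differed by more than counting error, which is all that these intervals cover.

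By exonic length the highest member was Mrpl18, homologue of a bacterial protein that binds the small RNA of the large subunit, with 594 TPM in replicate 1 and 658 in replicate 2 (626 ± 45.5). Mrps9, a small subunit protein with a bacterial homologue, followed with 353 and 402 TPM (377 ± 34.5). Mrpl32, a large subunit protein known to be matured by a protease of the mitochondrial inner membrane, had 363 and 325 TPM (344 ± 26.7). Between these members, the replicate ranges of Mrpl18 and Mrps9 were apart, whereas those of Mrps9 and Mrpl32 overlapped. Mrpl42, a protein of the large subunit without a bacterial homologue, had 376 TPM in replicate 1 and 229 in replicate 2 (303 ± 104). Mrps30 had 304 and 250 TPM (277 ± 37.9). Those 5 genes held 28.6% of the summed TPM of all members. By span length Mrpl18 (732 TPM), Mrpl32 (556 TPM) and Mrps30 (355 TPM) stayed among the 5 highest, with Mrps2 (549 TPM) and Mrpl57 (395 TPM), whereas Mrps9 (56.8 TPM) ranked 36 and Mrpl42 (54.7 TPM) ranked 37.

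At the other end by exonic length, Mrpl54 had 2.66 TPM in replicate 1 and 0.255 in replicate 2 (1.46 ± 1.70). These values rest on 13 fragments and 1 fragment. Mrps34 had 4.01 and 0.333 TPM (2.17 ± 2.60), from 30 and 2 fragments. Neither encodes a protein with a bacterial homologue, and counting error limits the level of both in replicate 2. Mrps12, the protein next to the decoding centre at which codons are read, had 4.29 and 3.01 TPM (3.65 ± 0.906). Mrpl4, which lines the tunnel through which the new chain leaves, had 7.27 and 4.19 TPM (5.73 ± 2.18). Mrpl17 had 8.17 and 4.56 TPM (6.37 ± 2.55). By span length Mrpl14 (2.10 TPM) was the lowest, then Mrpl54 (2.19 TPM), Mrpl48 (4.84 TPM), Mrpl23 (4.91 TPM) and Mrps28 (5.64 TPM). Mrps34, Mrps12, Mrpl4 and Mrpl17 then ranked 66, 67, 70 and 45. The upper quartile of members was 5.86 times the lower one (5.35 in replicate 1 and 7.96 in replicate 2). The amount of protein was not measured.

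**Figure D1:**
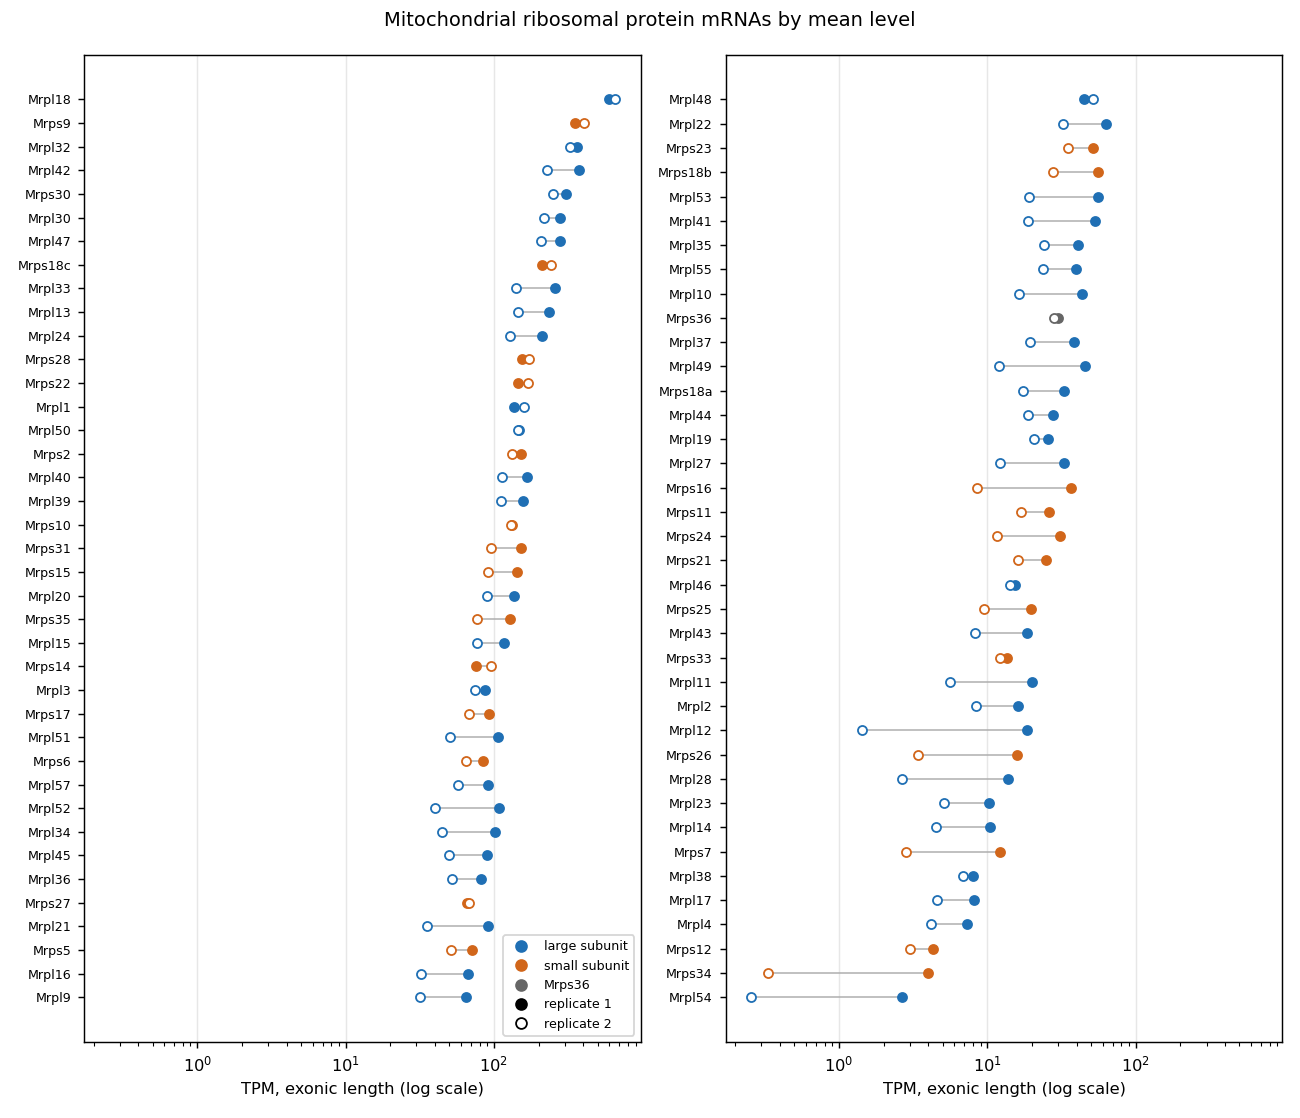
Level of each of the 77 members in TPM (horizontal axis, log scale, exonic length), in order of the mean, with replicate 1 as filled and replicate 2 as open circles and colour for the subunit. Levels run from 626 TPM for Mrpl18 to 1.46 for Mrpl54, and 68 members lie lower in replicate 2 than in replicate 1.

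The order of levels was broadly kept between the libraries. Across the 77 members, log2(TPM + 1) correlated between the replicates with Pearson's r = 0.958 and Spearman's rho = 0.960. This is a correlation across genes of 2 libraries, and genes are not independent replicates. In both libraries 69 members fell into the same tertile of the order, and none moved from the lowest to the highest tertile. Ranges of neighbours in the order seldom lay apart. Of 76 neighbouring pairs, 2 had replicate ranges that did not overlap, Mrpl18 above Mrps9 and Mrps21 above Mrpl46. Each range spans both libraries, and 68 members lay lower in replicate 2, which widens the ranges. Neighbours were not compared within each library, so an overlap does not show that they cannot be told apart. Single places in the ranking are not settled here.

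Levels had a smaller spread among members than among cytosolic ribosomal protein or oxidative phosphorylation genes. The SD of log2(TPM + 1) was 1.76 over members and 2.26 over all genes with at least 1 TPM. It was 2.74 over the 79 cytosolic ribosomal protein genes and 2.45 over 74 nuclear genes for subunits of oxidative phosphorylation, the complexes that mitochondrial ribosomes serve. Those lists were also higher, with medians of 100.1 TPM (131 in replicate 1 and 68.3 in replicate 2) and 95.6 TPM (131 and 52.0). With span length the medians were 179 and 55.9 TPM, against 45.3 TPM for members. Rpl39 (14546 TPM) was the highest cytosolic ribosomal protein gene. Rpl26, Rpl30, Rps27 and Rpl34 were listed at 0 in both libraries, and each shares 97.8 to 99.9% of its span with another gene on its strand. Without these 4 genes the SD was 2.34. For oxidative phosphorylation, the range ran from Ndufa11 with 1.59 TPM to Uqcrb with 2870 TPM, subunits of complexes I and III. No test was made between lists, since genes are not replicates of a condition.

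**Figure D2:**
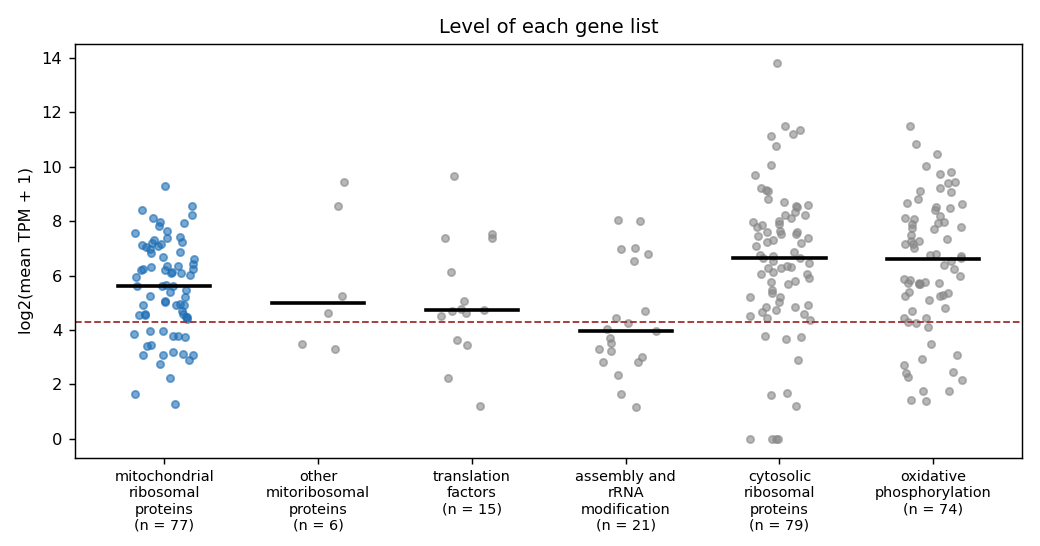
Mean level of each gene as log2(TPM + 1) (vertical axis) for the members and 5 other lists, with black bars for list medians and the dashed line for the median of genes with at least 1 TPM. The members' median (48.3 TPM) lies above the line (18.4 TPM) and below those of cytosolic ribosomal proteins (100.1 TPM) and oxidative phosphorylation (95.6 TPM).

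Mitoribosomal proteins that carry other names also had unequal levels, from 8.96 to 689 TPM. Ptcd3, a small subunit protein built of RNA-binding repeats, had 631 and 746 TPM (689 ± 81.3). Chchd1 of the small subunit had 400.4 and 360.1 TPM (380 ± 28.5). Dap3, a GTP-binding protein of the small subunit, had 47.2 and 27.8 TPM (37.5 ± 13.8). Ict1, a large subunit protein that can release stalled chains, had 31.4 and 15.8 TPM (23.6 ± 11). Aurkaip1 of the small subunit had 17.1 and 3.05 TPM (10.1 ± 9.94), and Gadd45gip1 of the large subunit 11.3 and 6.64 TPM (8.96 ± 3.27). By span length Chchd1 (1075 TPM) stood above Mrpl18 (732 TPM) and Ptcd3 (365 TPM) below it, while by exonic length Ptcd3 was above and Chchd1 below. Adding these 6 genes raised the share of counts from 0.306% to 0.383%.

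Genes for mitochondrial translation and ribosome assembly stood lower in the median than its proteins. The 15 translation factors and mRNA-binding proteins had a median of 25.6 TPM (29.5 and 22.5 in replicates 1 and 2). They ran from Tufm (1.28 TPM), the elongation factor that brings aminoacyl-tRNA, to Slirp (816 TPM), which binds mitochondrial mRNAs. The 21 genes for assembly and rRNA modification had a median of 14.7 TPM (17.1 and 9.94), from Ftsj2 (1.24 TPM), an rRNA methyltransferase, to Mterfd1 (264 TPM), a protein of the MTERF family. The 4 genes for mitochondrial transcription ran from Polrmt (0.698 TPM), the RNA polymerase, to Tfam (135 TPM), which packages mitochondrial DNA and starts transcription, with a median of 64.0 TPM (69.6 and 58.5) that lies above that of the members. Every gene of the translation and assembly lists reached 1 TPM.

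The subunits did not differ in a way that outlasted the choice of gene length. Large subunit members had a median of 48.2 TPM (range 1.46 to 626) and small subunit members 63.9 TPM (2.17 to 377), a ratio of 0.755. It was 0.936 in replicate 1 and 0.555 in replicate 2. With span length, which counts introns, the ratio was 1.98, and with exons that run beyond the counted spans it was 1.03, so its direction is set by the length used. By the ribosomal nomenclature, 46 members count as counterparts of a bacterial protein, with a median of 62.3 TPM. The 30 counted as mitochondrial had a median of 42.4 TPM, and Mrps18a and Mrps18b are among them despite their descent. By span length these medians were close, 49.3 and 48.3 TPM. With exonic length they were 73.2 and 54.5 TPM in replicate 1 and 40.2 and 31.2 TPM in replicate 2.

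Gene length mattered because fragments were counted over whole transcribed spans, introns included. Members were short genes, with a median exonic length of 1067 bases against 2915 for genes with at least 1 TPM, a median span of 7307 against 24230 bases, and 5 against 9 exons. Span lengths ran from 826 bases (Mrpl53) to 121713 bases (Mrps28). Ranks by exonic and by span TPM correlated with Spearman's rho = 0.674 over members, and 19 members moved by over 20 places. Mrps28 fell from 165 TPM by exonic length to 5.64 by span length, and Mrpl48 from 48.1 to 4.84. Mrpl17, whose counted span is nearly all exon (7017 of 7307 bases), rose from 6.37 to 35.0 TPM. Mrpl18 was the highest member by either length (732 TPM by span). The study's methods describe these mRNA data as holding very few reads from introns, which is why exonic length was used. Counts in introns cannot be separated from those in exons in these files, so exonic TPM overstates a gene as far as its introns were read.

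**Figure D3:**
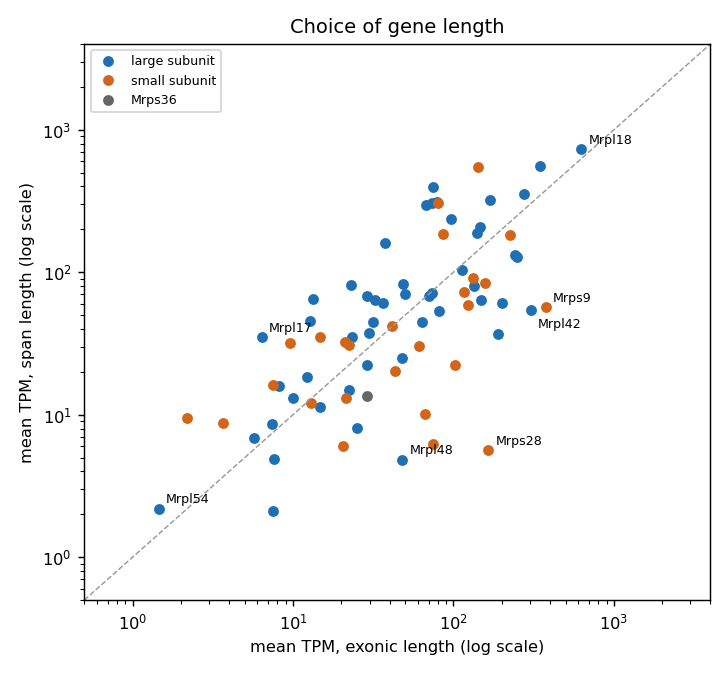
Mean TPM of each member by exonic length (horizontal axis) and by span length (vertical axis), both on log scales, with the line of equal values. Mrps28 (165 against 5.64 TPM) and Mrpl48 (48.1 against 4.84 TPM) lie far below the line, and Mrpl17 (6.37 against 35.0 TPM) lies above it.

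Proteins with named roles in the ribosome spanned much of the range. The stalk, at which translation factors dock, is built of Mrpl10, Mrpl11 and Mrpl12. Mrpl10 had 43.6 and 16.3 TPM (30.0 ± 19.3), Mrpl11 20.1 and 5.56 TPM (12.8 ± 10.3), and Mrpl12 18.6 and 1.42 TPM (10.0 ± 12.1). By exonic length all 3 lay below the members' median in the mean, and all 3 were lower in replicate 2. By span length Mrpl11 (45.3 TPM) stood at the members' median, with Mrpl10 at 37.7 TPM and Mrpl12 at 13.1 TPM. Mrpl12 fell from 147 fragments to 9, one of the widest gaps among members.

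Around the exit tunnel, levels ran from 5.73 to 169 TPM. Mrpl24 had 210.0 and 129 TPM (169 ± 57.6), and Mrpl45, which anchors the ribosome to the inner membrane, 90.1 and 49.9 TPM (70.0 ± 28.4). Mrpl22 had 63.4 and 32.1 TPM (47.8 ± 22.2), and Mrpl44 27.5 and 18.8 TPM (23.2 ± 6.18). Mrpl23 had 10.2 and 5.07 TPM (7.65 ± 3.65), the lowest of them after Mrpl4 by exonic length, with overlapping ranges. By span length Mrpl23 (4.91 TPM) stood below Mrpl4 (6.92 TPM). The value of Mrpl23 is uncertain, since 84.9% of the 50-base words of its transcript also occur in pseudogene transcripts. For Mrpl22 that share was 33.4%. Another 7 members exceeded 20%, and 48 members shared no word with a pseudogene. For its chromatin RNA libraries the study kept uniquely aligned reads (STAR), and whether this also held for the mRNA libraries is not stated.

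The S18 paralogues, which descend from 1 bacterial protein but occupy different places, had unequal levels. Mrps18c had 211 and 241 TPM (226 ± 21.5), Mrps18b 55.6 and 27.7 TPM (41.6 ± 19.7), and Mrps18a 32.7 and 17.4 TPM (25 ± 10.8). The range of Mrps18c did not overlap those of the others. Those of Mrps18b and Mrps18a overlapped, although Mrps18b stood above Mrps18a in each library. The exonic lengths of the S18 paralogues are similar (804, 1053 and 1017 bases). However, Mrps18a was counted over a span of 17906 bases, against 5710 for Mrps18c and 5986 for Mrps18b. By span length Mrps18c had 167 and 201 TPM, Mrps18b 55 and 28.8 TPM and Mrps18a 10.4 and 5.83 TPM, and then no ranges overlapped. Each of their windows printed above holds the ETS letters. In addition, that of Mrps18b holds the letters of NRF1 and that of Mrps18a those of YY1. Between 31.7% (Mrps18b) and 0% (Mrps18a) of the words of these transcripts occurred in pseudogenes. Mrps36 had 30.1 and 27.9 TPM (29.0 ± 1.53), with 36.2% of its words in pseudogenes.

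The members were not a block of equal change between the libraries, but most of them stood lower in replicate 2. The exact binomial test compared the 2 libraries gene by gene after scaling by the trimmed mean of M values (TMM), at an adjusted p of 0.05 over all 14536 genes with at least 10 counts. It called 54 of 77 members (70.1%) lower in replicate 2 and 11 (14.3%) higher, and 12 were not called. Of all genes tested, 28.6% were called lower and 29.1% higher. The median log2 ratio of replicate 2 over replicate 1 was -0.52 over members and -0.05 over all genes tested. This test sets 2 libraries of 1 group side by side and measures no condition. Without TMM, on library totals, 62 members were called lower and 4 higher, against 45.7% and 15.1% of all genes. TMM moved every log2 ratio up by 0.26.

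Medians below 0 were also found in the other lists. Among oxidative phosphorylation genes 51 of 74 were called lower (median log2 ratio -0.63), and among cytosolic ribosomal protein genes 54 of 74 (-0.56). In each of these lists 8 genes were called higher. In the other lists, 4 of 6 other mitoribosomal proteins and 7 of 15 translation factors were called lower. So were 9 of 21 assembly genes and 3 of 4 transcription genes. In the same order, 1, 3, 5 and 1 genes were called higher. Of 9 ES cell markers tested, 5 were called lower and 3 higher. On library totals the counts lower were 59 for oxidative phosphorylation, 61 for cytosolic ribosomal proteins, 5, 11, 14 and 3 for the lists of other mitoribosomal proteins, translation factors, assembly and transcription, and 8 for ES cell markers, with 1 marker higher. Among all genes tested, 45.7% were called lower and 15.1% higher on library totals. The widest ratios among the markers, with TMM, were -2.80 for Dppa5a, -2.50 for Pou5f1 and -0.98 for Esrrb, and Zfp42 gave 0.31. The part of cell state in the members' difference was not tested. By subunit, 40 of 50 large and 14 of 26 small subunit members were called lower. Called higher were 4 large and 7 small subunit members. Of all genes tested, 28.6% were lower and 29.1% higher. Of the members, 76 had fewer fragments in replicate 2, which is also the smaller library.

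The widest gaps were in members with few fragments. Mrpl12 gave a log2 ratio of -3.47 (exact binomial test, adjusted p = 1.82e-23), a level 11.6-fold higher in replicate 1 with a counting interval of 5.97 to 26.0. Mrps34 gave -3.12 (adjusted p = 4.07e-05, exact test), but the interval of its fold, 2.71 to 92.3, shows how little 2 fragments fix. For Mrpl54 the ratio was -2.68 (adjusted p = 0.0216, exact test) with an interval of 1.39 to 394-fold. Mrpl28, with 122 and 19 fragments, gave -2.16, a fold of 4.58 (2.81 to 7.86; adjusted p = 2.36e-12, exact test). Mrps26, a small subunit protein, had 127 and 22 fragments and gave -2.01, a fold of 4.11 (2.60 to 6.80; adjusted p = 1.04e-11, exact test). These 5 members have GC contents of 58.1 to 60.6%, near the upper end of the members' range of 40.1 to 60.6%.

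Members that were higher in replicate 2 differed by much less. Mrps14, a small subunit protein with a bacterial homologue, had 1393 and 1415 fragments and a log2 ratio of 0.51 (adjusted p = 4.76e-20, exact test). Mrpl1, of the stalk that helps spent tRNAs out of the ribosome, had 4776 and 4499 fragments and gave 0.40 (adjusted p = 7.78e-40, exact test). Mrps22 (0.40), Mrps18c (0.36) and Mrpl48 (0.36) were next. On library totals, Mrps14, Mrpl1, Mrps22 and Mrps9 were still called higher, and Mrpl50 was called lower. The other 6 members (Mrpl18, Mrps18c, Mrps28, Mrps10, Mrps27 and Mrpl48) were not called on library totals.

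GC content moved with the difference between the libraries. Over 14387 genes tested with a GC value, the log2 ratio fell as GC rose (Spearman's rho = -0.64), and over the 77 members rho was -0.47. The members' median GC was 51.4%, against 49.6% for genes with at least 1 TPM. Within bands of GC, members still stood below all genes. Up to 45% GC, the median log2 ratio was 0.00 for 11 members and 0.42 for all genes. Between 45 and 50% it was -0.44 for 23 members and 0.09 for all genes. From 50 to 55% it was -0.48 for 26 members and -0.29 for all genes. Above 55% it was -1.01 for 17 members and -0.66 for all genes. With a GC trend taken off, the members' median was -0.40, and 43 members were called lower and 8 higher. Of all 14387 genes, 22.0% were then called lower and 22.8% higher. On that scale Mrps14 (-0.01), Mrpl1 (-0.05) and Mrpl50 (-0.25) had ratios at or below 0. The part of GC content in these differences was not tested.

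**Figure D4:**
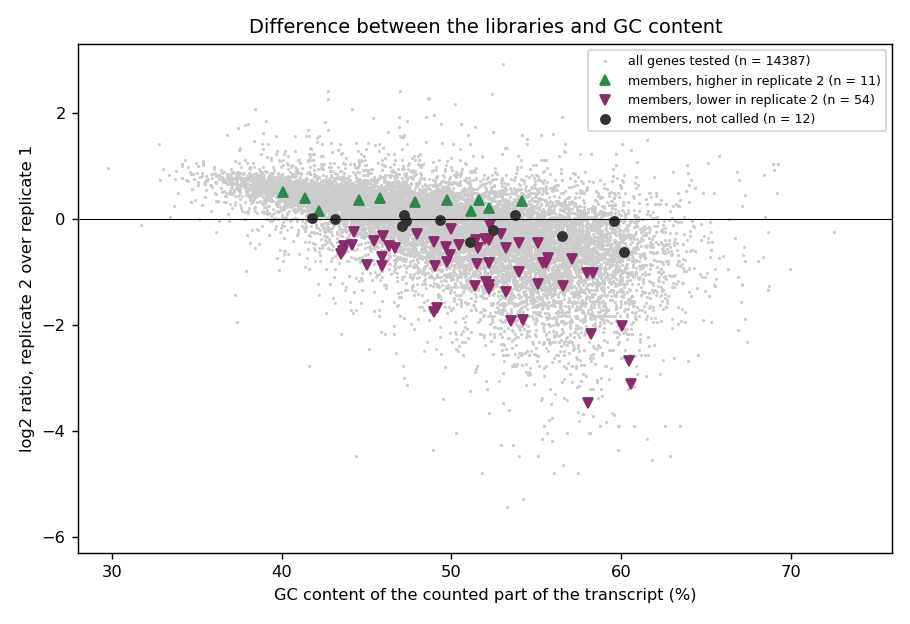
Log2 ratio of replicate 2 over replicate 1 after TMM scaling (vertical axis) against GC content in percent (horizontal axis), with all genes tested in grey and members marked by their call. The 54 members called lower lie at GC contents from 43.5% up, and the lowest points, Mrpl12, Mrps34 and Mrpl54, lie near 60%.

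Level also went with GC among members. Spearman's rho of mean TPM and GC was -0.56 over the 77 members and -0.48 over 12271 genes with at least 1 TPM, which share the same 2 libraries. Members up to 45% GC had a median of 124 TPM and those above 55% of 9.63 TPM. By span length rho was -0.55 over members, and these medians were 131 and 13.1 TPM. By exonic length, all 5 of the lowest members except Mrpl17 have over 55% GC. Among the 5 lowest by span length, Mrpl48 (51.6%) and Mrps28 (54.2%) lie below 55%. The part of GC content in these levels was not tested.

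Members often lie head to head with another gene. On the opposite strand, 27 members (35.1%) had a neighbour whose 5′ end lay within 1000 bases and pointed away, against 9.41% of all genes and 14.1% of genes with at least 1 TPM. Distances between the starts ran from 8 to 935 bases, with a median of 137. The closest pair was Mrps26 with 4930473A02Rik. Mrpl46 and Mrps11 face each other across 42 bases, so the starts of a large and a small subunit gene flank 1 short region. Mrps11 had 26.1 and 16.9 TPM (21.5 ± 6.49) and Mrpl46 15.3 and 14.2 TPM (14.8 ± 0.723). The ranges of this pair did not overlap by exonic length, but by span length they did (15.5 and 10.6 TPM against 11.4 and 11.2).

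Across the 26 distinct pairs, the ranks of members and neighbours went together, but their levels could lie far apart. Spearman's rho of their TPM was 0.776 over all 26 pairs, and 0.622 by span length. Over the 23 pairs whose neighbour had at least 10 counts in all, it was 0.846 for TPM and 0.512 for the log2 ratios. These points share the same 2 libraries. In mean TPM, 9 pairs lay within 2 times of each other, 10 were over 4 times apart and 4 of these over 10 times apart. Mrpl18, the highest member, starts 238 bases from Tcp1, a subunit of the cytosolic chaperonin, which had 1224 and 805 TPM. Mrpl32 lies 205 bases from the proteasome subunit gene Psma2, with 596 and 251 TPM. Mrpl47 (243 TPM) lies 308 bases from the complex I subunit gene Ndufb5 (215 TPM). At the low end, Mrps12 lies 187 bases from Sars2, the mitochondrial seryl-tRNA synthetase gene, with 1.28 TPM in either library. Mrps34 lies 33 bases from Eme2, with 0.979 and 0.0939 TPM. The pairs farthest apart each had the member above its neighbour. Mrpl10 had 30.0 TPM and Lrrc46 0.139, Mrpl55 31.5 and 2610507I01Rik 0.385, Mrpl21 63.6 and Ighmbp2 1.68, and Mrps26 9.63 and 4930473A02Rik 0.415 TPM. Mrps18c (226 TPM) also stood well above Helq (29.8 TPM).

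Calls of neighbours depended on the scaling. Of the 23 pairs, 9 were called lower on both sides, 2 higher on both sides and 5 in opposite directions. On library totals, 12 were called lower on both sides and none higher on both sides or in opposite directions. Of all genes tested, 28.6% were lower and 29.1% higher with TMM, and 45.7% and 15.1% on library totals. Such counts over pairs of other genes were not made. With TMM, Mrpl18 was higher in replicate 2 (log2 ratio 0.32) while Tcp1 was lower (-0.43), and on library totals Mrpl18 (0.06) was not called and Tcp1 gave -0.70. Mrpl32 gave 0.01 and was not called, whereas Psma2 gave -1.08 and was called lower. Mrpl49 (-1.76) and its neighbour Fau (-1.05), a cytosolic ribosomal protein gene, were both called lower. Members with such a neighbour had a median of 36.2 TPM and the 50 without of 55.4 TPM, or 44.7 and 54.0 TPM by span length. In 20 of 27 cases the member was higher than its neighbour in both replicates by exonic length, and in 6 it was lower in both. The pair of Mrps11 and Mrpl46 enters both of these counts, once from each side.

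**Figure D5:**
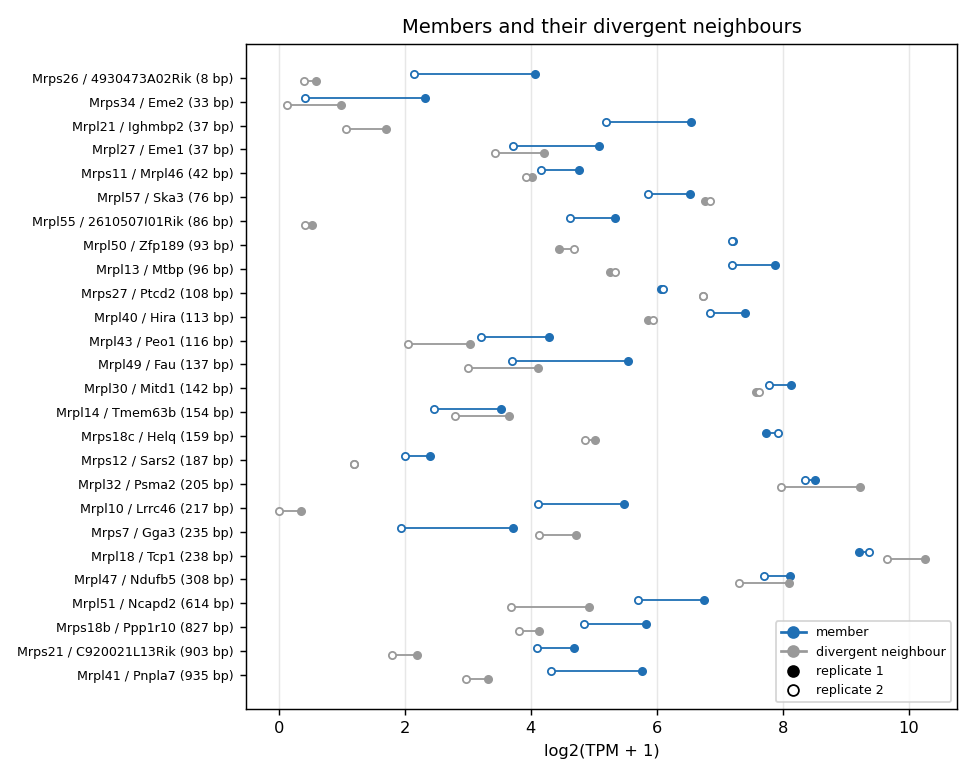
Level as log2(TPM + 1) (horizontal axis) of members (blue) and their divergent neighbours (grey), in order of the distance between starts, with replicate 1 filled and replicate 2 open. Some pairs lie close, such as Mrpl47 (243 TPM) and Ndufb5 (215 TPM), and others far apart, such as Mrpl21 (63.6 TPM) and Ighmbp2 (1.68 TPM).

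Members were spread over 17 chromosomes, with 10 on chromosome 11 and 8 on chromosome 17, and none was on the X chromosome. Positions are given on mm10 for a few of them. Mrpl18 (ENSMUSG00000057388, 4 exons) lies at chr17:12911355-12916091 on the minus strand. Mrpl54 (ENSMUSG00000034932, 3 exons) lies at chr10:81264722-81266926 on the minus strand, and Mrpl12 (ENSMUSG00000039640, 5 exons) at chr11:120484669-120488754 on the plus strand. Mrps6 lies at chr16:92058336-92112227 on the plus strand, where Slc5a3 covers 54.1% of its span and 18.6% of its exonic bases on the same strand. A fragment that falls in such a shared stretch is counted for neither gene under the options recorded, so the 84.6 and 65.0 TPM of Mrps6 (74.8 ± 13.8) are uncertain. The other members overlapped on their strand were Mrps23, by 0.201% of its span and no exonic base, and Mrpl53, by 1.70% of its span and 2.26% of its exonic bases.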

How the data were processed

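Polyadenylated RNA was isolated with oligo(dT) beads, made into stranded libraries and sequenced as read pairs. The deposited counts are fragments per gene in 2 libraries, counted by the authors in reverse-stranded mode with featureCounts 1.5.2 over whole transcript spans of a long RNA annotation on mm10. The count columns were matched to the samples by name, except for a letter b in the sample descriptions that the column names lack, and this could not be checked further. The deposited length column is that span in bases. The processing notes name STAR (2.4.2a) and Bowtie2 (2.3.2). The alignment of these libraries is not given in the sources used here. Starts in the table lie 1 base before those of RefSeq for 12335 of 21082 genes, so 1 was added.

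From the counts, TPM was computed with exonic lengths (GENCODE M21 basic exons inside the counted spans, matched for 22122 genes) and averaged over replicates as in the study's methods. GC content and 50-base words shared with pseudogenes came from the same annotation. With 1 group, no contrast between groups could be fitted. The exact binomial test (two-sided, scipy 1.17.1, Benjamini-Hochberg over genes with at least 10 counts) was scaled by TMM (edgeR 4.0.16, R 4.3.3). Log2 ratios added 0.5 counts. Alternatives were library totals, DESeq2 (1.42.0) size factors, other filters, a GC trend of degree 3, other lengths and pseudocounts, and leaving out each replicate. A count of 0 allows up to 3 counts in a library, here 0.126 and 0.148 CPM (counts in 1000000). Intervals cover counting error only.

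The members and lists were chosen with earlier results of these data known. Genes named by rule were the 5 highest and 5 lowest members, the 5 largest and 5 smallest ratios among called members, members of the stalk, decoding centre, exit tunnel and S18 group, Mrps30, Mrps36, members under 10 counts in a library or overlapped on their strand over more than 20%, all mitoribosomal proteins of other names, and the extremes of the other lists. Other members, divergent neighbours and motifs were chosen after values were seen.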

Additional observations from a re-analysis of the deposited data

How the results depend on the processing

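Of 55 alternative values for 11 results, 48 stayed within the limits set for a change and 7 moved. The share of counts was 0.383% with the other mitoribosomal proteins added, of which 6 were found. The median level was 20.8 without a length (CPM, another unit), and 45.3 with span length. The ratio of large to small subunit levels was 1.98 with span length and 1.03 with exons beyond the counted spans, so its direction depends on the length. On library totals without TMM, 4 members were higher in replicate 2 and the median log2 ratio was -0.78. As a residual from the GC trend that median was -0.40, and 51 members differed between the libraries instead of 65, while calls over all genes went from 57.8% to 44.9%. Leaving out each replicate gave a share of 0.260 to 0.352%, a median level of 34.7 to 64.6 TPM, 75 to 77 members at 1 TPM or more, a spread of 1.65 to 2.02 and a subunit ratio of 0.555 to 0.936. The exons beyond the counted spans and the length of the nearest transcript were added as alternatives after seeing the data. No paired analysis was possible because all samples belong to 1 group. The 3 members with under 10 counts in a library are limited by depth.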
